A study of Mus musculus with 12 samples.

Results

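NF-κB is a family of dimeric transcription factors that switch on immune, survival and inflammatory genes. In resting cells the dimers are held in the cytoplasm by the IκB proteins, and an activating kinase complex marks the IκBs for destruction so that the dimers enter the nucleus. Several IκB genes and *Tnfaip3* are themselves switched on by NF-κB, which closes a negative feedback loop, and in blood stem cells the pathway is known for coupling inflammatory signals to division and differentiation. Described here are 10 genes of this system, of 46078 genes in the counts table, found by their symbols through the gene identifiers of the table. The 5 subunit genes are *Nfkb1*, *Nfkb2*, *Rel*, *Rela* and *Relb*, and the 5 inhibitor genes are *Nfkbia*, *Nfkbib*, *Nfkbie*, *Nfkbiz* and *Tnfaip3*.

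RNA-seq was available for 12 libraries in 4 groups of 3, all from C57BL/6 bone marrow LSK cells (lineage-negative, Sca-1 and c-Kit positive stem and progenitor cells) infected with a lentivirus that carries an shRNA and GFP. The shLuci groups received a control shRNA against luciferase, and the shRad21 groups an shRNA against *Rad21*, which encodes a subunit of the cohesin ring. In the culture setting, infected cells were kept for 3 d with thrombopoietin and stem cell factor and then sorted as GFP+ CD48- Sca-1+. For the in vivo setting, infected cells were transplanted into lethally irradiated mice and GFP+ LSK cells were sorted again, 3 months later per the labels. The study's methods give a longer interval than the labels. The comparison asks how loss of cohesin changes NF-κB signaling in activated and in engrafted cells. Lentiviral shRNA lowers a transcript without removing it, and the shRNA sequence used for these libraries was not stated. The culture libraries were made with TruSeq RNA v2 and the in vivo libraries with SMART-Seq v4 and Nextera XT, in 1 sequencing lane per setting, so setting, kit, lane and sorted population cannot be told apart. Nothing in the labels says whether the 3 libraries of a group came from separate cultures or animals, so p-values measure only the spread between these libraries.

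Libraries held 15235129 to 29846689 counts. The targeted gene fell in both settings, from 402 ± 17.7 to 139.6 ± 13.01 CPM (counts scaled to a common library size; SD, n = 3) in culture and from 122 ± 3.81 to 44.9 ± 2.40 CPM in vivo, with adjusted p-values of 1.16e-05 and 8.82e-06. All 9 LSK and stem cell markers on the list (such as *Kit*, *Ly6a* and *Hlf*) were present in every group, with summed levels of 2721 to 3113 CPM in culture and 3960 to 4450 CPM in vivo. *Cd48*, the gene of the surface protein removed by the culture gate, was at 29.4 to 44.2 CPM in shLuci culture and at 233 to 302 CPM in shLuci in vivo libraries.

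In culture, *Rad21* knockdown lowered 4 of the 5 inhibitor genes and 3 of the 5 subunit genes, and raised none. The largest falls were those of *Nfkbiz*, *Nfkbia* and *Tnfaip3*, each to less than the level of any control library. *Nfkb1* and *Rela*, which encode the subunits of the classical dimer, did not pass the test. In all, 7 of the 10 genes were lower at an adjusted p below 0.05 (edgeR's quasi-likelihood test, Benjamini-Hochberg over 15543 genes), against 8.06% of all genes tested that were lower, 6.18% that were higher and 14.2% that were called in either direction. In the same 7 genes every knockdown library was below every control library, as it was for 16.2% of all genes. The median log2 fold change was -1.10 over the inhibitors, -0.27 over the subunits and -0.0039 over all genes tested. The 10 genes were chosen with earlier results of these data known, so these counts describe them and are not independent support.

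*Nfkbia* (chr12:55489410-55492647 on GRCm38, minus strand) encodes IκBα, the inhibitor that is destroyed and remade fastest after a stimulus. Its level in the shLuci culture libraries 1, 2 and 3 was 347, 328 and 227 CPM, and in the shRad21 culture libraries it was 96.8, 145 and 114 CPM. The groups did not overlap, although control library 3 was well below the other two. The log2 fold change was -1.33 (SE 0.171), with an adjusted p of 0.000592. Over all genes, same-numbered culture libraries deviated together (correlation of deviations from group means 0.216 to 0.262). This was not visible for *Nfkbia*, where control library 1 was the highest control and knockdown library 1 the lowest knockdown. By pair the log2 difference of its levels was -1.84, -1.17 and -0.996.

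*Nfkbiz* (chr16:55811375-55838899, minus strand) encodes IκBζ, an atypical nuclear IκB that modulates NF-κB bound to DNA and is needed for a set of secondary response genes such as *Il6*. It was at 163, 158 and 104 CPM in shLuci culture and at 45.3, 62.3 and 41.6 CPM in shRad21 culture. No knockdown library reached a control library, and control library 3 was again the lowest of its group. The log2 fold change of -1.51 (SE 0.183, adjusted p = 0.000427) was the largest fall of the 10 genes. *Tnfaip3* (chr10:19000910-19015657, minus strand) encodes A20, a ubiquitin-editing enzyme that shuts off signaling upstream of the IκB kinases. It was at 116, 128 and 99.9 CPM in the control and at 44.1, 66.1 and 49.0 CPM in the knockdown, again without overlap. Its log2 fold change was -1.10 (SE 0.144, adjusted p = 0.000638).

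The remaining IκB genes changed less. *Nfkbie* (chr17:45555703-45563169, plus strand), the gene of IκBε, was at 73.4, 69.9 and 63.6 CPM in the control and at 38.5, 54.5 and 46.3 CPM in the knockdown. The groups did not overlap, and the log2 fold change was -0.56 (SE 0.122, adjusted p = 0.0105). *Nfkbib* (chr7:28758251-28767512, minus strand), the gene of IκBβ, ranged from 27.6 to 38.5 CPM in the control and from 23.2 to 29.9 CPM in the knockdown, with overlapping groups. Its log2 fold change of -0.26 (95% interval -0.57 to 0.046) had an adjusted p of 0.268. Exons on the opposite strand (*Ccer2* and *Sirt2*) cover 16.4% of its exonic bases. How reads in this overlap were counted is not known, since the strand setting of the counting was not given.

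Among the subunits, the falls were in the genes of the alternative pathway and in *Rel*. *Nfkb2* (chr19:46304320-46312385, plus strand) encodes a precursor that acts as an IκB-like inhibitor of RELB until it is processed. Control libraries 1, 2 and 3 held 169, 151 and 126 CPM of it, and knockdown libraries 80.2, 102 and 83.9 CPM. Every knockdown library was below every control library, with a log2 fold change of -0.74 (SE 0.122, adjusted p = 0.00239). Opposite-strand exons cover 18.1% of its exonic bases (AC114539.1 and *Psd*). *Relb* (chr7:19606217-19629438, minus strand), the usual partner of processed NFKB2, was at 76.4, 72.8 and 51.9 CPM in the control and at 34.1, 50.4 and 33.9 CPM in the knockdown. Control library 3 and knockdown library 2 lay close together, and the log2 fold change was -0.76 (SE 0.175, adjusted p = 0.0147).

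*Rel* (chr11:23736847-23770970, minus strand), the gene of the c-Rel subunit, was tight within groups, at 97.8, 104 and 97.9 CPM in the control and at 87.2, 80.0 and 80.5 CPM in the knockdown. The log2 fold change was small, -0.27 (SE 0.0762), with an adjusted p of 0.0398. *Nfkb1* (chr3:135584655-135691547, minus strand) encodes the precursor of the smaller subunit of the classical dimer and lay between 338 and 379 CPM in the control and between 358 and 377 CPM in the knockdown. *Rela* (chr19:5637483-5648130, plus strand), the gene of the activating subunit of that dimer, lay between 119 and 125 CPM in the control and between 113 and 132 CPM in the knockdown. Groups overlapped for both genes. The 95% interval of the log2 fold change was -0.13 to 0.21 for *Nfkb1* (adjusted p = 0.81) and -0.19 to 0.17 for *Rela* (adjusted p = 0.966).

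**Figure D1:**
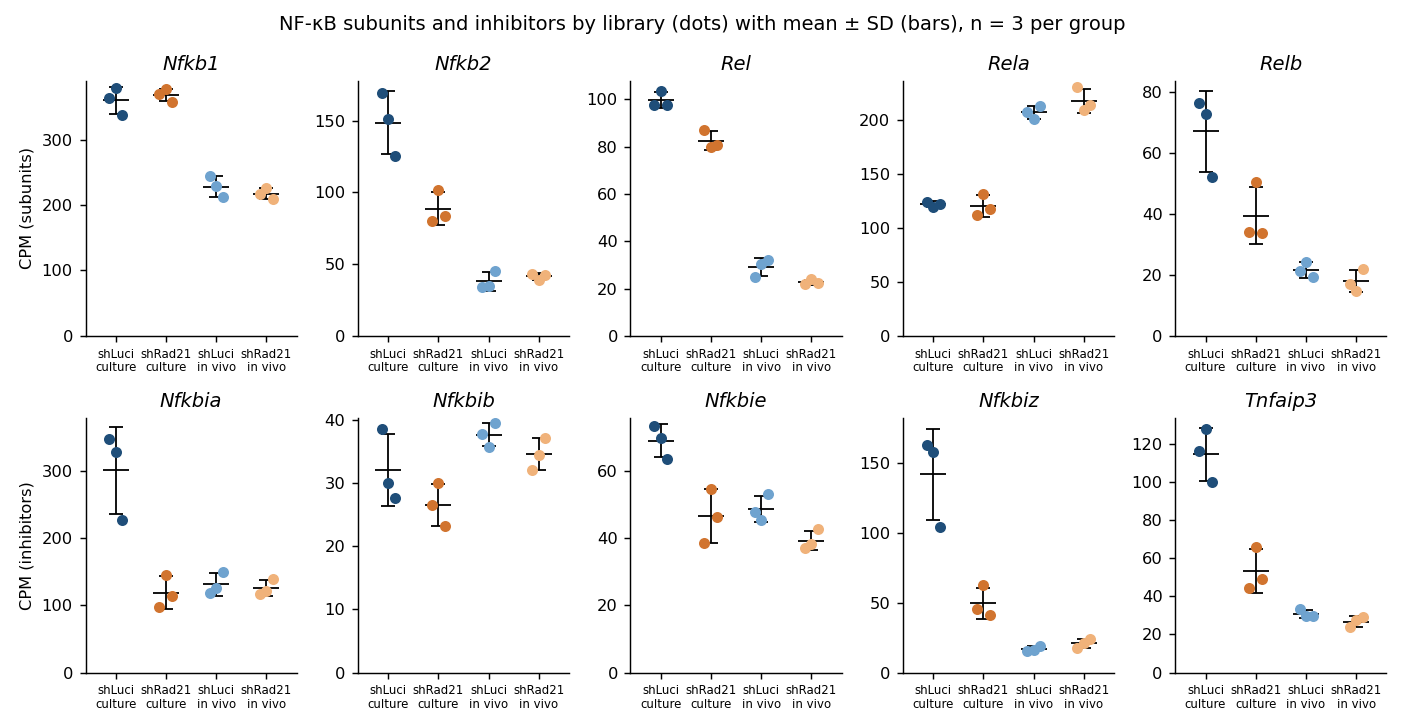
Expression of the 5 subunit genes (upper row) and the 5 inhibitor genes (lower row) in CPM in each of the 12 libraries, with the mean and SD of each group of 3; every vertical axis starts at 0. *Nfkbia*, *Nfkbiz* and *Tnfaip3* are highest in shLuci culture (means 300.5, 142 and 115 CPM) and lower in shRad21 culture (119, 49.7 and 53.1 CPM), whereas *Rela* is highest in vivo (207 and 218 CPM).

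The same 7 genes passed with the library number as a block, where 20.5% of all genes were called. Each had a smaller adjusted p (0.028 for *Rel* and 5.54e-05 for *Relb*). The numbers were taken as pairs because same-numbered libraries deviated together in these same data, so the smaller values are not separate evidence. The calls of *Rel* and *Relb* were lost on leaving out any of several single libraries, while their log2 fold changes stayed between -0.29 and -0.235 and between -0.97 and -0.65. Without shLuci culture library 1 or 2 the adjusted p of *Rel* was 0.0545 or 0.132, and without shRad21 culture library 1, 2 or 3 it was 0.0648, 0.193 or 0.165. For *Relb* it was 0.0544 or 0.0751 without shLuci culture library 1 or 2, and 0.0592 or 0.0611 without shRad21 culture library 1 or 3. *Rel* also missed the threshold with library size as the only scaling (0.0599), without a filter on low counts (0.0877) and in a single model of all 12 libraries (0.0622).

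Markers of several cell types moved with the knockdown in the same libraries, in both directions. Over all genes tested, 8.06% were lower and 6.18% higher in culture. In vivo 5.32% were lower, and 901 of 15938 genes were higher. Summed over 9 monocyte and macrophage markers, the level was 72.7 to 103 CPM in shLuci culture and 23.7 to 30.2 CPM in shRad21 culture, with *C1qa* at 0 counts in both, and the 4 of these genes that could be tested were all lower. In vivo it was 152 to 191 CPM and 68.8 to 93.7 CPM, with 6 of 9 lower. Over 9 neutrophil markers it was 69.4 to 86.0 CPM and 32.2 to 37.8 CPM in culture, where *Ly6g* was at 0 counts and 2 of 3 genes tested were lower, and 1633 to 2033 CPM and 1163 to 1314 CPM in vivo, where 2 of 8 were lower. These sums were mostly 1 early granule gene, *Prtn3* in shLuci culture (70.4%) and *Mpo* in shLuci in vivo (66.9%), and of the genes of mature neutrophils *S100a8* and *S100a9* did not pass in vivo (-0.19 and -0.28 on the log2 scale). Of 7 B cell markers, 5 were lower in vivo, and 1 of the 2 tested was lower in culture. Of the T and NK cell markers tested, 1 of 4 was lower and 1 higher in vivo, and 0 of 2 passed in culture. In that list *Klrb1c* went from 4.105 to 44.7 CPM in vivo and *Lck* from 78.3 to 27.9 CPM. Of the erythroid markers tested, 2 of 5 were lower in vivo and 1 of 2 in culture. For dendritic cell markers these counts were 1 of 4 and 1 of 1. Over 5 megakaryocyte markers the sum was 577.5 to 665.5 CPM and 598 to 887 CPM in culture, with 2 genes lower and 2 higher, and 239.6 to 301 CPM and 443 to 601 CPM in vivo, with 3 higher. Over 5 mast cell and basophil markers it was 10.4 to 19.4 CPM and 24.4 to 77.9 CPM in culture and 96.6 to 117 CPM and 127 to 206 CPM in vivo, with *Cpa3* the 1 gene higher in each setting (log2 fold change 2.03 and 1.09). Of the 9 LSK and stem cell markers, 2 were lower in culture, *Kit* (-1.42) and *Flt3* (-1.12), and 4 were higher, among them *Slamf1* (1.21), and in vivo 3 were lower and 4 higher. The part of such cells in the values of the NF-κB genes was not tested. In bulk libraries, fewer cells that express a gene and less RNA of it per cell cannot be told apart.

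Promoters of the 10 genes, called or not, were searched for the κB consensus, the sequence that NF-κB dimers bind. RefSeq promoters (GRCm38.p6, 250 bases before to 50 after a start site) were at hand for 7 of the 10 genes, with *Nfkb1*, *Relb* and *Nfkbiz* not among them. Searched on both strands, 5 of the 7 held at least 1 match (*Nfkb2*, *Rel*, *Nfkbia*, *Nfkbie* and *Tnfaip3*) and *Rela* and *Nfkbib* held none in this window. Of all 32851 promoters, 4.51% held a match, and of all 27025 genes, 5.14% did so in at least 1 promoter. A match describes letters only, and binding was not measured in these data. Whether matches go with the falls was not tested.

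Shown are the stretches before the start site of the 4 called genes with the largest falls among those with a match, and of *Rela*, which did not pass the test, for comparison. Up to 150 bases are given, without those that GENCODE counts as exon of the same gene; for *Nfkb2*, where an exon of an alternative transcript covers all of them, only 20 bases around the matches are given. Where a gene had several promoters, the one with the most matches was taken. Each reads 5′ to 3′ on the strand of the gene, and capitals mark matches to the κB consensus on either strand; neighbouring matches that overlap are joined into 1 run.
*Nfkbia* (chr12:55492648-55492797, minus strand): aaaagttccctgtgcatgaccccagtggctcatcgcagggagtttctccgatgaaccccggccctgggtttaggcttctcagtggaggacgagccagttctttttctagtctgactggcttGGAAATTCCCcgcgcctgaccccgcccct
*Tnfaip3* (chr10:19015411-19015547, minus strand): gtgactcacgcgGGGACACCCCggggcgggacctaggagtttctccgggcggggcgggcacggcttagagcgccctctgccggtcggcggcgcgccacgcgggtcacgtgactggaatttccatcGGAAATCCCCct
*Nfkb2*, first stretch (chr19:46304693-46304712, plus strand): gtcacGGGAATTCCCCccct
*Nfkb2*, second stretch (chr19:46304717-46304736, plus strand): gggccgaaaGGGGCTTTCCc
*Nfkbie* (chr17:45555550-45555699, plus strand): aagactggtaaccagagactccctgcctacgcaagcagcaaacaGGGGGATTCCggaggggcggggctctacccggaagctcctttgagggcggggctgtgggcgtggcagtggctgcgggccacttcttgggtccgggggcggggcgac
*Rela* (chr19:5637391-5637482, plus strand): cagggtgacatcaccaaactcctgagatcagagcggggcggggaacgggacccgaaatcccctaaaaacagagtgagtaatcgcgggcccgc

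In reisolated cells from transplanted mice, none of the 10 genes passed the test with edgeR (0 of 10, against 11.0% of 15938 genes called), although *Rad21* itself was lowered as in culture. Unadjusted p-values were below 0.05 for 2 genes, *Rel* and *Nfkbie*, as they were for 3842 of the 15938 genes tested. DESeq2 called 1, *Nfkbie*, and 14.2% of all genes. Neither count sets the 10 genes apart from the rest. The median log2 fold change was -0.11 over the inhibitors, -0.054 over the subunits and -0.0019 over all genes tested. In culture those of the inhibitors and the subunits were -1.10 and -0.27.

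The 3 inhibitors with the largest falls in culture gave different values in vivo. *Nfkbia* was at 118, 125 and 149.7 CPM in the shLuci libraries and at 116, 122 and 139.7 CPM in the shRad21 libraries. The groups overlapped almost fully, and the log2 fold change was -0.040 (95% interval -0.26 to 0.18, adjusted p = 0.863). *Nfkbiz* was at 15.7, 16.4 and 19.3 CPM in the control and at 17.7, 20.8 and 24.4 CPM in the knockdown, so that the knockdown mean was the higher one. The log2 fold change of 0.31 had a 95% interval of -0.019 to 0.63 and an adjusted p of 0.237. *Tnfaip3* was at 33.2, 29.7 and 29.7 CPM in the control and at 23.7, 27.6 and 28.9 CPM in the knockdown. The knockdown libraries all lay below the controls, as they did for 3 of the 10 genes and for 15.8% of all genes in this setting, and the log2 fold change was -0.19 (95% interval -0.44 to 0.062, adjusted p = 0.353).

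*Rel* and *Nfkbie* had the largest negative log2 fold changes in vivo. *Rel* was at 24.8, 30.3 and 32.0 CPM in the control and at 21.8, 23.9 and 22.3 CPM in the knockdown, without overlap. The log2 fold change was -0.34 (SE 0.123, adjusted p = 0.119). It passed in a single model of all 12 libraries (-0.36, adjusted p = 0.0227) and without shLuci in vivo library 1, the lowest control (-0.45, adjusted p = 0.041). *Nfkbie* was at 47.8, 45.5 and 53.0 CPM in the control and at 37.0, 38.1 and 42.6 CPM in the knockdown, with every knockdown library below every control. Its log2 fold change of -0.30 (SE 0.092) had an adjusted p of 0.0707 in edgeR and of 0.0373 in DESeq2.

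The other subunits overlapped between the in vivo groups. *Nfkb2* was at 33.8, 34.9 and 45.5 CPM in the control and at 43.2, 38.8 and 42.5 CPM in the knockdown, a log2 fold change of 0.14 (95% interval -0.13 to 0.41, adjusted p = 0.54). *Relb* was at 21.2, 24.3 and 19.2 CPM in the control and at 17.1, 14.8 and 22.0 CPM in the knockdown (log2 fold change -0.25, adjusted p = 0.409). *Nfkb1* lay between 209 and 244 CPM over both in vivo groups, *Rela* between 201 and 230.5 CPM and *Nfkbib* between 32.1 and 39.4 CPM, with adjusted p-values of 0.706, 0.428 and 0.556.

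**Figure D2:**
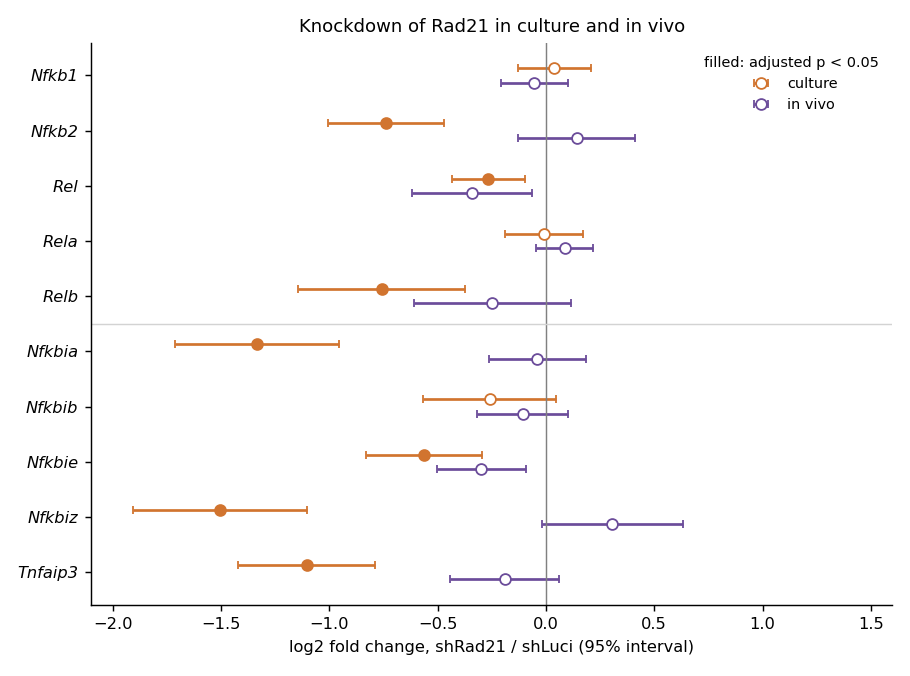
Log2 fold change of each gene between shRad21 and shLuci libraries, with its 95% interval, in culture (orange) and in vivo (purple), for 3 libraries per group; filled points passed the test at an adjusted p of 0.05. In culture 7 of the 10 points are filled and negative, down to -1.51 for *Nfkbiz*, and in vivo no point is filled and the values lie between -0.34 and 0.31.

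Whether the knockdown acted differently in the 2 settings was tested with an interaction term over all 12 libraries. The log2 fold change in culture minus that in vivo was negative for 8 of the 10 genes, as for 8383 of 17050 genes. Of the 10 genes, 4 passed the test as lower in culture. Over all genes, 3.03% were called in this direction and 4.67% in either. Of the 4 genes called, 3 were inhibitors and 1 was a subunit. The difference of the log2 fold changes was -1.80 for *Nfkbiz* (SE 0.259, adjusted p = 0.00122), -1.29 for *Nfkbia* (SE 0.226, adjusted p = 0.00436), -0.90 for *Tnfaip3* (SE 0.194, adjusted p = 0.0152) and -0.87 for *Nfkb2* (SE 0.185, adjusted p = 0.0144). For *Relb*, which fell in culture, the difference of -0.51 (95% interval -1.07 to 0.055) had an adjusted p of 0.347, and for *Nfkbie*, at -0.26 (95% interval -0.60 to 0.092), it was 0.466. *Rel* had nearly the same log2 fold change in both settings, with a difference of 0.084 (95% interval -0.20 to 0.36). The interval spanned -0.11 to 0.31 for *Nfkb1*, -0.30 to 0.13 for *Rela* and -0.52 to 0.23 for *Nfkbib*. Since kit, lane and sorted population differ between the settings, their part in these differences cannot be told apart from that of the setting.

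The shLuci libraries differed between settings, and setting, kit, lane and sorted population cannot be told apart in this comparison. Comparisons of this kind share the shLuci libraries with the knockdown comparisons, so the values are given side by side and were not correlated. In shLuci culture, 8 of the 10 genes were higher than in shLuci in vivo and 1 was lower. Of the 17050 genes tested, 74.2% were called, 37.1% as higher and 37.1% as lower. *Nfkbiz* had the largest difference, at 142 ± 32.6 CPM in culture and 17.1 ± 1.93 CPM in vivo (SD, n = 3; log2 difference 3.05, SE 0.192, adjusted p = 2.06e-09). *Nfkb2* (149 ± 22.0 and 38.0 ± 6.49 CPM; 1.96), *Tnfaip3* (115 ± 13.9 and 30.9 ± 2.04 CPM; 1.89), *Rel* (99.8 ± 3.39 and 29.0 ± 3.79 CPM; 1.78) and *Relb* (67.0 ± 13.2 and 21.6 ± 2.60 CPM; 1.64) were also higher in culture by more than 1 on the log2 scale. All of their libraries in culture lay above all of those in vivo, as was the case for 8 of the 10 genes and 37.8% of all genes.

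*Nfkbia*, with 300.5 ± 64.5 CPM in culture and 131 ± 16.7 CPM in vivo, differed by 1.20 on the log2 scale (SE 0.161, adjusted p = 8.19e-06). Smaller differences were those of *Nfkb1* (0.66, SE 0.0701) and *Nfkbie* (0.50, SE 0.115). *Rela* went the other way, at 122 ± 2.62 CPM in culture and 207 ± 6.12 CPM in vivo (-0.77, SE 0.0715, adjusted p = 1.61e-07). *Nfkbib* had a difference of -0.24 (SE 0.124, adjusted p = 0.0947), which passed the test when shLuci culture library 1 was left out (-0.38, adjusted p = 0.0101). It also passed with upper-quartile scaling (-0.36, adjusted p = 0.0167) or library size alone (-0.41, adjusted p = 0.008), which moved the median of all genes in this comparison to -0.12 and -0.18.

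**Figure D3:**
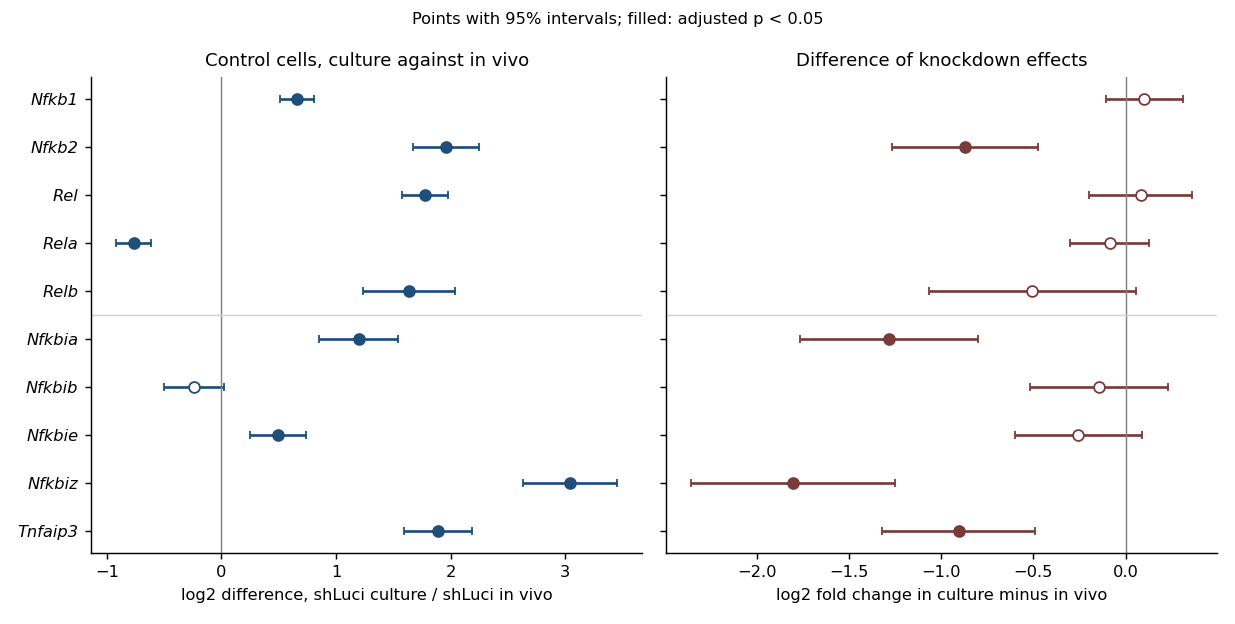
Left, log2 difference of each gene between shLuci culture and shLuci in vivo libraries; right, log2 fold change by knockdown in culture minus that in vivo; points carry 95% intervals from the model of 12 libraries and are filled where the adjusted p was below 0.05. In the left panel 8 genes lie to the right of 0 and are filled, up to 3.05 for *Nfkbiz*, while *Rela* lies at -0.77; in the right panel *Nfkbiz*, *Nfkbia*, *Tnfaip3* and *Nfkb2* are filled and lie between -1.80 and -0.87.

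The order of the groups differed from gene to gene. For *Nfkb2*, *Relb*, *Nfkbiz*, *Rel* and *Tnfaip3* the order was shLuci culture, then shRad21 culture, then both in vivo groups. Every shRad21 culture library was thus above every in vivo library, where setting cannot be told apart from kit, lane and sorted population. The in vivo groups overlapped for *Nfkb2*, *Relb* and *Nfkbiz* and not for *Rel* and *Tnfaip3*. *Nfkbia* was different. Its shRad21 culture libraries, with a mean of 119 CPM, overlapped with both in vivo groups, whose means were 131 and 126 CPM. *Nfkbie* likewise stood apart from the others only in shLuci culture (68.9 ± 4.96 CPM), and its 3 other groups, at 39.2 to 48.8 CPM, overlapped with their neighbours in order. For *Nfkbib* no neighbouring groups were separate, with means of 26.5 to 37.6 CPM.

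Levels of different genes were compared per length, as CPM divided by the exonic length in kilobases (RPKM). In shLuci culture *Nfkbia* was the most abundant of the 10 genes at 187 ± 40.1 RPKM, followed without overlap by *Rela* at 39.8 ± 0.852 RPKM. *Nfkb2* (32.4 RPKM), *Nfkb1* (29.9 RPKM) and *Nfkbiz* (28.3 RPKM) came next and overlapped with one another in order, and *Rel* was last at 13.4 RPKM. In shLuci in vivo, *Nfkbia* (81.4 ± 10.4 RPKM) and *Rela* (67.6 ± 1.99 RPKM) stood above the rest, and *Tnfaip3* (4.27 RPKM), *Rel* (3.89 RPKM) and *Nfkbiz* (3.42 RPKM) were at the bottom. The place of *Nfkb1* depends on the length used, because its exons together span 12061 bases and its transcript with the longest coding sequence 4117. With the latter it was at 87.5 RPKM in shLuci culture, second only to *Nfkbia*.

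Summed over the genes of each class, the ratio of inhibitor to subunit transcripts was highest in the shLuci culture libraries. The inhibitor sum was 306, 289 and 209 RPKM in the shLuci culture libraries and 100.1, 143 and 112 RPKM in the shRad21 culture libraries. The subunit sum was 140.4, 136 and 122 RPKM and 105, 120.2 and 106 RPKM in the same libraries. The ratio of inhibitor to subunit sum was thereby 2.01 ± 0.253 in shLuci culture, 1.07 ± 0.121 in shRad21 culture, 1.17 ± 0.0997 in shLuci in vivo and 1.09 ± 0.121 in shRad21 in vivo (SD, n = 3). In shLuci culture the lowest library was at 1.72, and all libraries of the other groups lay between 0.952 and 1.29. The ratio is a description of sums of transcripts, with no test, and holds no information on protein.

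*Nfkbia* was the largest part of the inhibitor sum in every group. It held 69.4% of the inhibitor sum in shLuci culture, 62.1% in shRad21 culture and 66.4% and 68.1% in vivo. The sum includes the atypical *Nfkbiz*, at 10.5% of it in shLuci culture and 2.79% in shLuci in vivo, and no ratio without *Nfkbiz* was taken. The log2 change of the ratio by knockdown in culture was -0.91 with all 5 inhibitors and -0.60 without *Nfkbia*, and in vivo it was -0.11 and -0.18. With lengths from the longest coding transcript, an alternative chosen after seeing the data, the ratio was 1.32 in shLuci culture and 0.687 in shRad21 culture. In vivo it was 0.845 with shLuci and 0.791 with shRad21, so its size relative to 1 depends on the lengths. Within the subunits, *Rela* made up 30.1% of the sum in shLuci culture and 64.8% in shLuci in vivo.

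**Figure D4:**
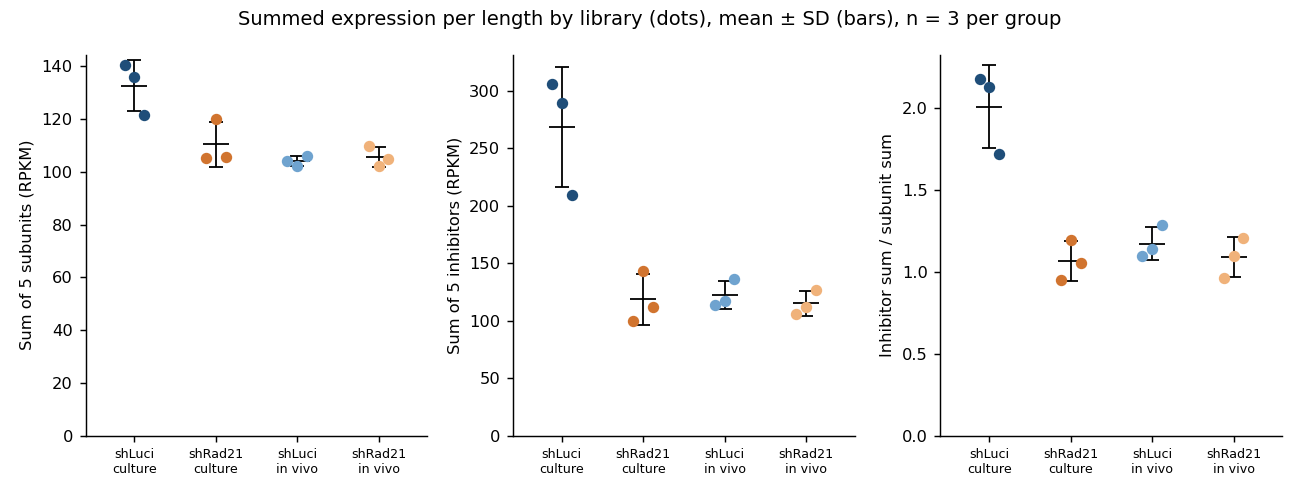
Summed RPKM of the 5 subunit genes (left), of the 5 inhibitor genes (middle) and their ratio (right) in each of the 12 libraries, with mean and SD per group of 3; axes start at 0. The 3 shLuci culture libraries have ratios of 1.72 to 2.18, and the 9 others lie between 0.952 and 1.29.

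Other genes of the pathway were taken from 2 lists. Both were chosen with earlier results of these data known, so counts from them are descriptions and not independent support. The first held 26 kinases, adaptors and ligases that carry the signal to the IκBs. In culture 4 of the 26 fell and 1 rose, where 8.06% of all genes tested fell and 6.18% rose. The 4 were *Card9* (log2 fold change -1.16, SE 0.189), an adaptor below fungal receptors, *Ikbke* (-0.87, SE 0.0868), a noncanonical IκB kinase, *Birc3* (-0.74, SE 0.107), a ubiquitin ligase that is itself an NF-κB target, and *Tab2* (-0.30, SE 0.0866), an adaptor of the kinase TAK1. *Ripk1*, a scaffold kinase below the TNF receptor, rose by 0.31 on the log2 scale (SE 0.0797). None of the core kinase subunits *Chuk*, *Ikbkb* and *Ikbkg* was among the 5. The median of the list was -0.041.

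The second list held 16 other inhibitors and regulators. In culture 8 of the 16 fell and none rose, with a median of -0.31, where 8.06% of all genes fell and 6.18% rose. The largest falls were those of *Zc3h12a* (log2 fold change -1.21, SE 0.144), which encodes an RNase that degrades inflammatory mRNAs, *Tnip1* (-1.14, SE 0.130), a partner of A20, *Bcl3* (-0.93, SE 0.110), an atypical nuclear IκB, and *Tnfaip8l2* (-0.76, SE 0.198), a negative regulator of immune receptor signaling. *Tnip3* (-0.65), *Nfkbid* (-0.57), *Tank* (-0.52) and *N4bp1* (-0.36) were the other 4. For *Tnip1* the mean fell from 316 ± 26.9 to 143 ± 28.5 CPM, and for *Zc3h12a* from 88.0 ± 9.19 to 37.9 ± 8.34 CPM.

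In vivo, 1 gene of each list fell and none rose, where 5.32% of all genes fell and 11.0% were called in either direction, so these counts say nothing particular about the lists. *Traf5*, an adaptor of TNF receptor family members, went from 13.2 ± 1.39 to 7.40 ± 0.980 CPM (log2 fold change -0.82, adjusted p = 0.00793), and *Tnfaip8l2* from 62.1 ± 4.35 to 26.6 ± 5.59 CPM (-1.21, adjusted p = 0.000774). *Tnfaip8l2* was therefore lower with the knockdown in both settings. *Tnip1*, at 48.4 ± 3.93 and 47.2 ± 2.50 CPM, and *Zc3h12a*, at 11.7 ± 2.93 and 10.1 ± 0.744 CPM, were low in both in vivo groups. By the interaction term, 3 of the 26 kinases, adaptors and ligases were called with a lower fold change in culture than in vivo and 1 with a higher one. Of the 16 other regulators, 4 were called lower and 0 higher. Over all genes, 3.03% were called lower and 1.64% higher. The lower ones, with the difference of the log2 fold changes, were *Traf1* (-1.13), *Birc3* (-0.85), *Ikbke* (-0.81), *Tnip1* (-1.11), *Zc3h12a* (-1.01), *Bcl3* (-0.88) and *Tank* (-0.55), and *Traf5* was the higher one (0.96). *Traf1*, named after its values were seen, missed the threshold in culture (-0.59, adjusted p = 0.0572) and passed it with the replicate block (adjusted p = 0.00634). In vivo its mean was higher with the knockdown, at 11.5 ± 2.22 CPM in the control and 16.8 ± 2.64 CPM in the knockdown, without passing the test. Between control cells of the 2 settings, 14 of the 26 genes were higher and 10 lower in culture, and 8 of the 16 higher and 5 lower, beside 37.1% of all genes in each direction.

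**Figure D5:**
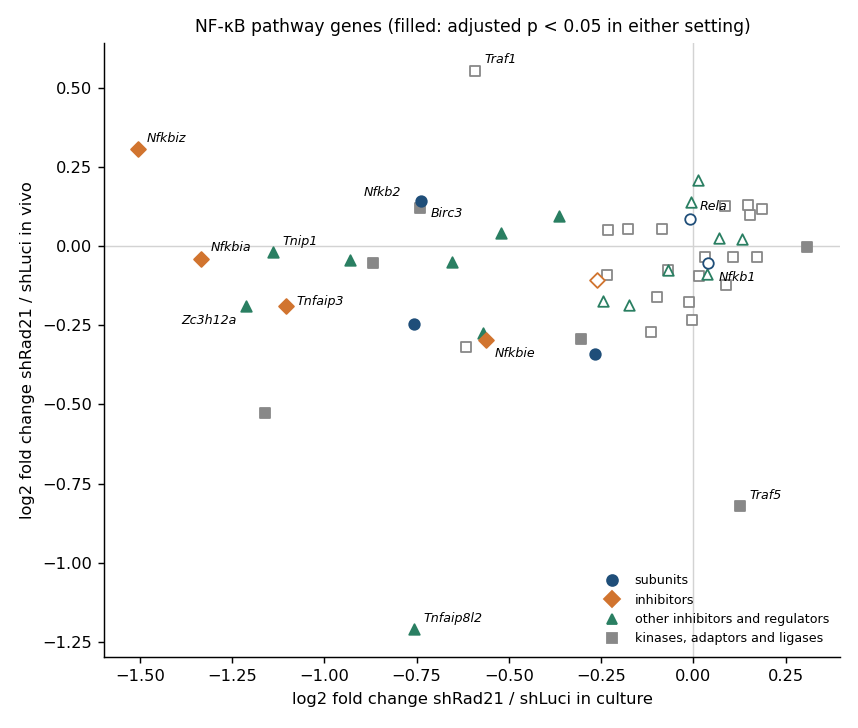
Log2 fold change by knockdown in culture (horizontal) and in vivo (vertical) for the 10 subunit and inhibitor genes and the 42 other pathway genes, with 1 point per gene; filled points passed the test in at least 1 setting. Values in culture reach from -1.51 to 0.31, most filled points lie to the left of 0 and close to 0 in vivo, and *Tnfaip8l2* (-0.76 and -1.21) is low on both axes.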

How the data were processed

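The deposited values are raw counts per gene, whole numbers made by the authors, who mapped single-end reads to GRCm38 with TopHat2 2.0.11 and counted them on genes with HTSeq 0.6.1, per the submitters' processing notes; the strand setting was not given in the sources used here. Libraries were grouped by their labels. From the counts, edgeR 4.0.16 in R 4.3.3 was run with TMM scaling, filterByExpr (minimum count 10, minimum total 15), the quasi-likelihood test and Benjamini-Hochberg adjustment over all genes tested, with a two-sided threshold of 0.05 and 1 fit per setting. Control cells were compared, and the interaction tested, in a fit of 12 libraries in 4 groups. Intervals are 95% intervals of the fit. CPM were scaled by TMM over 12 libraries, and RPKM use exon unions of GENCODE M21. The steps were tested on simulated data.

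The genes and both pathway lists were chosen with earlier results of these data known. All 10 genes are named in every comparison. Of each pathway list, up to 4 genes with the largest absolute log2 fold change past the threshold were named per comparison, and the other genes of those counts after their values were seen. Same-numbered libraries deviated together in culture (correlation of deviations from group means 0.216 to 0.262, other pairs -0.322 to 0.0686), so their numbers were taken as pairs from the data, and not in vivo (0.024 to 0.0694). Alternatives were DESeq2 1.42.0, upper-quartile scaling, library size only, no filter, 10 counts in every library, the replicate block, a single model of 12 libraries and leaving out each library. Depth of 15235129 to 29846689 counts per library puts a floor of 3 counts at 0.101 to 0.197 CPM, which covers counting error only. No sequencing reads were used here.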

Additional observations from a re-analysis of the deposited data

Results flagged for a closer look

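For 4 of the 10 genes the effect of the knockdown differed between culture and in vivo by the interaction term of edgeR's quasi-likelihood test. Over all genes, 3.03% were called as lower in culture and 4.67% in either direction. The difference of the log2 fold changes (culture minus in vivo) was -1.80 for *Nfkbiz*, -1.29 for *Nfkbia*, -0.90 for *Tnfaip3* and -0.87 for *Nfkb2*. All 4 calls were kept when any 1 library was left out. Kit, lane and sorted population differ between the settings, and their part in these differences cannot be told apart.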

How the results depend on the processing

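Of 620 values from alternatives of 40 single-gene results, 593 kept their direction and their side of the threshold, 12 fell short of it, 7 newly passed it and 8 reversed, and the cause was not tested. The reversed values were those of *Rela* in culture (0.014 with library size only, 0.011 without a filter), and, on leaving out single libraries, *Rela* (-0.073 to 0.052) and *Nfkb1* (-0.0035 to 0.080) in culture and *Nfkbia* in vivo (-0.12 to 0.061); none was called. The number of the 10 genes called in vivo was 1 instead of 0 with DESeq2 and with a single model of 12 libraries. These settings called 14.2% and 12.2% of all genes. On leaving out single libraries the number in vivo was 0 to 1, beside 5.76% to 9.48% of all genes. In culture it was 5 to 7 on leaving out single libraries, beside 8.47% to 18.0% of all genes. The replicate block moved the number of pathway genes called in vivo from 2 to 4 and changed no call of the 10 genes. In vivo the numbers do not pair the libraries, and the share of all genes called went from 11.0% to 10.5%. By the interaction term, 8 pathway genes were called, beside 4.67% of all genes, and 4 to 8 on leaving out single libraries. The number was 4 without shRad21 in vivo replicate 1, beside 2.99% of all genes. It was 5 without shLuci culture replicate 2 or shLuci in vivo replicate 2, beside 2.82% and 3.43% of all genes. Fewer genes were thus called over all genes too in these 3 fits. *Relb* passed the interaction test without a filter (-0.53, adjusted p = 0.0345). The log2 change of the inhibitor to subunit ratio in culture was -0.60 without *Nfkbia*. The 95% interval of the log2 fold change of *Rel* in vivo was -0.62 to -0.065.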

Other observations

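For each of the 10 genes whose level spanned more than 1 on the log2 scale over the 12 libraries, the most similar other genes were sought among 17040 genes, by the root mean square difference of log2 CPM after each gene was centred on its mean. This measure describes these libraries, which share a kit and a lane within a setting. *Nfkbiz* was closest to *Tnip1* (0.23), a partner of A20, and then to *Ero1l* (0.35). *Nfkbia* was closest to *Ugcg* (0.19) and *Mxd1* (0.20), and *Tnfaip3* to *Fgfr1* (0.20) and *Ier3* (0.22). Among the subunits, *Nfkb2* was closest to *Cd276* (0.16) and *Rhob* (0.18), *Relb* to *Jund* (0.18) and 2410006H16Rik (0.22), *Rel* to *Prr11* (0.092) and *Tbcel* (0.12), and *Rela* to *Ube2g2* (0.041) and *Naxd* (0.051). Of the 10 genes themselves, *Relb* and *Tnfaip3* were closest to each other (0.20).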
